A study of Mus musculus with 56 samples.

Results

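Transcripts of 6 neuroendocrine genes were followed in the mouse anterior hypothalamus: the peptide genes Oxt (oxytocin), Crh (corticotropin-releasing hormone), Trh (thyrotropin-releasing hormone) and Sst (somatostatin), together with the CRH receptor gene Crhr1 and the gene of the CRH-binding protein, Crhbp. They were chosen by name, as 6 of the 17564 genes in the deposited table, and all 6 passed the filter on low values. RNA sequencing covered 56 female C57BL/6J mice aged 9 weeks that were kept in alternating light and dark with normal chow. Of these, 28 had daytime-restricted feeding (DRF, food from ZT0 to ZT12) and 28 had nighttime-restricted feeding (NRF, food from ZT12 to ZT0) for 7 days, where ZT0 is lights-on and ZT12 is lights-off. Every 4 h from ZT0 to ZT24, which makes 7 time points, tissue was taken from 4 mice per regimen, and each mouse gave 1 sample. No group had food at all hours, so DRF and NRF can only be compared with each other.

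These genes sit at the head of several endocrine axes. Neurons of the paraventricular nucleus make CRH, which drives pituitary ACTH release, and TRH, which drives TSH release, while oxytocin is made by large neurons of the paraventricular and supraoptic nuclei and acts in labor, milk ejection and social behavior. Somatostatin from the periventricular hypothalamus restrains growth hormone release, CRHR1 is the main receptor for CRH, and CRH-binding protein binds CRH outside the cell and keeps it from its receptors.

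The bases that encode the active peptides are shown because the measured transcripts are valued for these short stretches. Each is the coding strand of the GENCODE vM21 transcript on GRCm38, 5′ to 3′, with the codons of the mature peptide in capitals and the codons of the flanking processing signal in lower case. All lie in protein-coding exons. The Oxt stretch, in exon 1 of 3 at chr2:130576267-130576302 on the plus strand, holds 9 codons of the peptide. The Crh stretch, in exon 2 of 2 at chr3:19693916-19694044 on the minus strand, holds 41. For Trh, the first of 5 copies of the repeated unit is given, in exon 3 of 3 at chr6:92243088-92243111 on the minus strand, with 3 codons of TRH before the glycine codon that gives the amide. The Sst stretch, in exon 2 of 2 at chr16:23889732-23889779 on the minus strand, holds the last 14 codons before the stop.
Oxt: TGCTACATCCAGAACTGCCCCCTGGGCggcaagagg
Crh: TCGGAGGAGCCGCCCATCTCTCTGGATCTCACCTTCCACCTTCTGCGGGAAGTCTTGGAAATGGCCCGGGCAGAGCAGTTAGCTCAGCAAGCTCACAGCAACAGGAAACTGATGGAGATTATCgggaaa
Trh: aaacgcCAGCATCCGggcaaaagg
Sst: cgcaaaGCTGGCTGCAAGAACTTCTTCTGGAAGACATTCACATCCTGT
A single Trh transcript therefore carries 5 copies of the TRH unit, whereas the other peptides are encoded once. Oxt lies at chr2:130576173-130577054, and its end is 3565 bases from the end of Avp (vasopressin), which is on the other strand. Of the 375 coding bases of Oxt, 127 lie in runs of 50 or more bases that are identical in Avp, so reads from these parts could have been split between both genes. Crhr1 lies at chr11:104132855-104175523 and Crhbp at chr13:95431371-95444924.

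Promoter bases from RefSeq (GRCm38.p6) were available for 5 of the 6 genes. Both strands of the 250 bases before the start were searched for the cyclic AMP response element TGACGTCA and for the E-box CACGTG, the motif of CLOCK and BMAL1. These motifs do not overlap. The cyclic AMP response element was found in Sst alone among the 5, from base -48 to base -41, and in 1.55% of all 32851 promoters. The 30 bases around it, at chr16:23890874-23890903 on the minus strand, are shown with the motif in capitals.
Sst: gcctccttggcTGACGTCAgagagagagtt
The E-box was in none of the 5 windows and in 6.02% of all promoters. TGACG, a part of the cyclic AMP response element, was searched as well. Outside Sst it was found in Trh, from base -96 to base -92, and in Crhbp, from base -64 to base -60. It was in 17.8% of all promoters. The Sst start in GENCODE lies 114 bases before that of RefSeq, so the Sst element falls inside the first GENCODE exon.

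Before the results, 2 libraries need naming. DRF ZT16 mice 3 and 4 had the lowest correlation with the other mice, with a median r of 0.991 and 0.988 over genes, and the next lowest mouse had 0.993. The comparisons at ZT16 are therefore also given without them. The normalized library size was 29591266 to 34493344 reads per mouse, and replicate libraries of a group correlated at r = 0.987 to 0.998. Markers of the paraventricular and supraoptic nuclei, the tissue these neurons come from, were read in every mouse: Sim1 ranged from 7.94 to 25.3 CPM (reads scaled to a common library size) and Otp from 27.2 to 89.2 CPM. Markers of neighboring tissue were present too and varied widely, with a range of 17.4 to 112 CPM for the thalamic gene Tcf7l2 and of 5.29 to 47.8 CPM for the striatal gene Drd1. The pituitary hormones Gh and Prl were at 0 in 38 and 41 of the 56 mice. Cga, on the same list, was at 0 in 25 mice and reached 13.8 CPM. Tshb, at 8.47 to 13.5 CPM, and Pomc, at 5.79 to 56.7 CPM, were read in every mouse, and Pomc is also an arcuate marker. In such bulk tissue, fewer cells of a type and less RNA per cell cannot be told apart.

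Oxt was the most abundant of the 6 transcripts. Per kb of exon, its level was 498 ± 105 CPM (mean ± SD, n = 56), against 241 ± 35.1 for Sst, 107 ± 19 for Trh, 6.96 ± 1.42 for Crh, 4.21 ± 0.628 for Crhr1 and 3.63 ± 0.584 for Crhbp. On this scale Oxt exceeded Sst in 56 of 56 mice, Sst exceeded Trh in 56 of 56 and Trh exceeded Crh in 56 of 56. The lower neighbors were closer. Crh exceeded Crhr1 in 53 of 56 mice and Crhr1 exceeded Crhbp in 42 of 56, so the last pair overlapped. The reads behind a value were 4893 to 12424 for Oxt, 2395 to 6899 for Trh, 3864 to 7789 for Sst, 132 to 387 for Crh, 219 to 514 for Crhr1 and 149 to 294 for Crhbp. Mice of the same group differed by more than read counting alone gives. The within-group coefficient of variation was 19.2% for Oxt, where counting gives 1.10%, and 11.1% for Crhr1, where counting gives 5.58%.

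**Figure D1:**
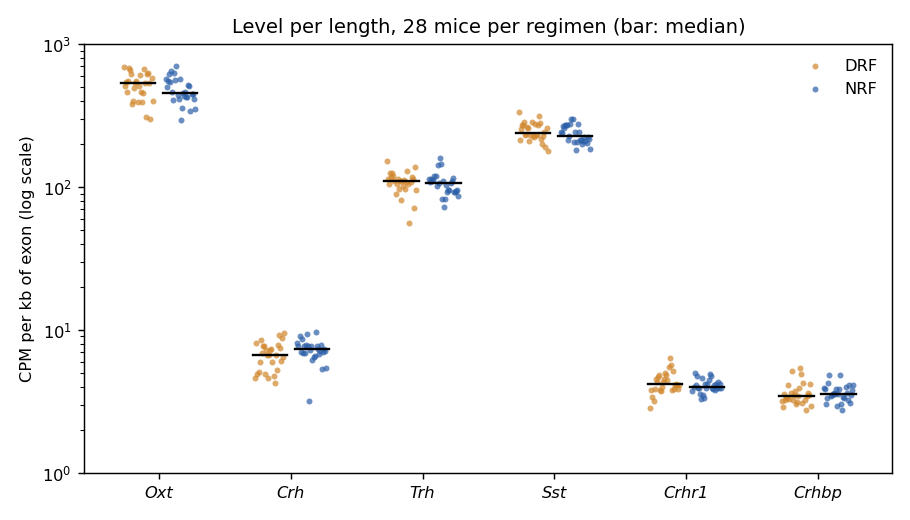
Level per length of the 6 transcripts, in CPM per kb of exon on a log scale, with 1 point per mouse (28 DRF, 28 NRF) and the median as a bar. Oxt, Sst and Trh lie above all values of Crh, Crhr1 and Crhbp in both regimens.

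No member was called rhythmic in either regimen. JTK_CYCLE and the Lomb-Scargle periodogram, combined for periods of 20 to 28 h, called 0 of 6 members in DRF, where 0.813% of all 16245 transcripts were called, and 0 of 6 in NRF, where 27.8% were. At an unadjusted p under 0.05 there was 1 member in DRF and 0 in NRF, against 4.36% and 34.8% of all transcripts. A 24-h cosine fitted with limma called 0 of 6 in both regimens as well. The smallest adjusted p of the combined test was 0.221 for Crhr1 in DRF and 0.584 for Sst in NRF. The fitted cosines had amplitudes of 0.20 ± 0.05 (SE) on the log2(CPM + 1) scale for Crhr1 in DRF, with a peak at ZT14.1, and 0.06 ± 0.04 in NRF. For Trh the amplitude was 0.18 ± 0.07 in NRF, with a peak at ZT5.32, and 0.08 ± 0.08 in DRF. Sst had 0.15 ± 0.05 in NRF, with a peak at ZT6.24, and 0.04 ± 0.06 in DRF. By limma, the adjusted p of these cosines was 0.0799 for Crhr1 in DRF, 0.0691 for Trh in NRF and 0.0662 for Sst in NRF. The rhythm itself was then compared between regimens with limma, and 0 of 6 members differed, against 11.3% of the 16051 transcripts tested. The lowest adjusted p was 0.0851, for Crhr1, which was also the single member with an unadjusted p under 0.05. Of all transcripts, 29.4% had such a p.

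**Figure D2:**
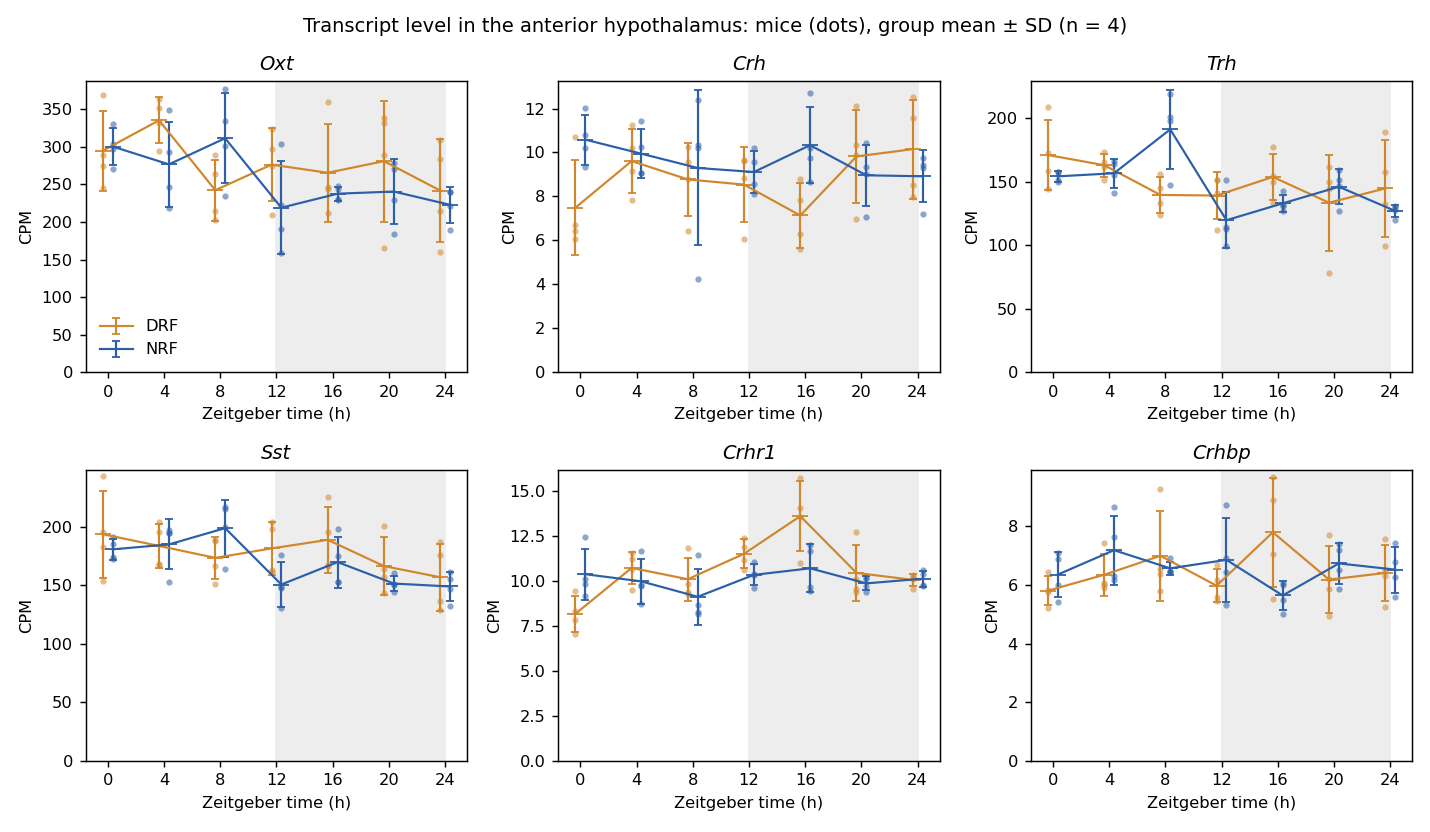
CPM of each transcript against zeitgeber time in DRF (orange) and NRF (blue), with 1 dot per mouse and the group mean ± SD (n = 4). Gray marks the dark period. Trh in NRF falls from 191 CPM at ZT8 to 120 at ZT12, and Crhr1 in DRF rises from 8.16 CPM at ZT0 to 13.6 at ZT16.

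Without assuming a wave, Trh and Sst were called over time in NRF. limma's test over the 7 time points, with ZT24 kept apart from ZT0, called these 2 of 6 members, with 29.9% of all transcripts called. Trh in NRF was 198, 147, 219 and 201 CPM at ZT8 and 113, 151, 99.7 and 115 CPM at ZT12. At ZT8 3 of the 4 mice were above every mouse at ZT12, and the fourth, at 147 CPM, was below the highest one there. The group means spanned 0.67 on the log2 scale, from 191 ± 30.9 CPM (SD, n = 4) at ZT8 to 120 ± 22.1 at ZT12 (limma, adjusted p = 0.0109). Sst in NRF also had its highest mean at ZT8, with 164, 200, 215 and 217 CPM. Its lowest mean was at ZT24, with 147, 161, 156 and 132 CPM, and the 4 values at ZT8 were all above the 4 at ZT24. The means were 199 ± 24.4 and 149 ± 12.7 CPM and spanned 0.41 on the log2 scale (limma, adjusted p = 0.0285). ZT0 is the same clock hour as ZT24. In NRF, Sst was 172 to 191 CPM at ZT0 and 132 to 161 at ZT24, without overlap. Trh was 150 to 158 CPM at ZT0 and 120 to 131 at ZT24, also without overlap. ZT24 minus ZT0 was not called for either gene (limma, adjusted p = 0.207 for Sst and 0.325 for Trh).

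Both calls were lost when some replicate numbers were left out. Without replicate 1, 3 or 4 the adjusted p for Trh was 0.157, 0.233 and 0.146, and without replicate 2, 3 or 4 that for Sst was 0.0743, 0.247 and 0.142. Markers of other regions moved over the same hours in NRF. The summed CPM of the 6 thalamic markers was 133 to 202 at ZT8, 170 to 538 at ZT12 and 161 to 441 at ZT24. That of the 5 paraventricular and supraoptic markers was 271 to 388 at ZT8, 212 to 326 at ZT12 and 277 to 319 at ZT24. For the 5 arcuate markers it was 62.2 to 119 at ZT8, 61.15 to 84.4 at ZT12 and 65.6 to 74.3 at ZT24. Their part in the Trh and Sst results was not tested.

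Oxt was not called over time in either regimen. In NRF it was 334, 301, 377 and 234 CPM at ZT8 and 222, 304, 159 and 191 at ZT12, so the groups overlapped (range of the means over the day, 0.53 on the log2 scale, adjusted p = 0.14 by limma). In DRF its highest mean was 335 ± 30.5 CPM at ZT4 and its lowest 242 ± 68.0 at ZT24 (limma, adjusted p = 0.297). Crh, which had few reads, spanned 0.45 in DRF (adjusted p = 0.241 by limma) and 0.25 in NRF (adjusted p = 0.833 by limma). Of the 13 steps between neighboring groups, when the 14 groups are ordered by mean, 0 exceeded the larger SD of the pair for Oxt, Crh, Trh, Sst and Crhbp, and 1 did for Crhr1.

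In DRF, limma called Crhr1 over time as 1 of 6 members, with 32.7% of all transcripts called. At ZT0 the DRF mice had 7.04, 9.42, 8.32 and 7.84 CPM. At ZT16 they had 11, 13.6, 15.7 and 14 CPM, and no mouse at ZT0 reached the lowest of these. The means were 8.16 ± 0.996 and 13.6 ± 1.95 CPM and spanned 0.67 on the log2 scale (limma, adjusted p = 1.91e-04). The single step that exceeded the SD, when the groups are ordered, was that from DRF ZT12 (11.5 ± 0.796 CPM) up to DRF ZT16. The upper mean without DRF ZT16 mice 3 and 4 was 12.3 ± 1.80 CPM (SD, n = 2), and that step was within the SD. Without DRF ZT16 mice 3 and 4 the span was 0.54 (limma, adjusted p = 0.00756). In NRF, Crhr1 stayed between 8.12 and 12.4 CPM over all 28 mice, and the means spanned 0.21 (limma, adjusted p = 0.592). The test of the 24-h wave above did not call this difference between regimens.

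DRF and NRF differed for Crhr1 and Crhbp at ZT16, 4 h after lights-off, when NRF mice had food and DRF mice did not. limma called these 2 of 6 members, both higher in DRF, with 19.9% of all transcripts called at this time. Crhr1 was 11, 13.6, 15.7 and 14 CPM in DRF and 12.0, 11.6, 9.64 and 9.44 CPM in NRF. In DRF 3 of the 4 mice were above all NRF mice, and DRF mouse 1 fell among them. The difference was 0.32 on the log2 scale (SE 0.10, 95% confidence interval 0.12 to 0.52, 1.25-fold, adjusted p = 0.022 by limma). Crhbp was 7.06, 9.70, 8.90 and 5.54 CPM in DRF and 5.48, 5, 6.08 and 6.01 CPM in NRF. Here too 3 DRF mice were above all NRF mice and the fourth, mouse 4, was among them. The difference was 0.38 (SE 0.13, interval 0.12 to 0.65, 1.3-fold, adjusted p = 0.0325 by limma).

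Neither call held without DRF ZT16 mice 3 and 4. The difference was then 0.19 for Crhr1 (limma, adjusted p = 0.568) and 0.49 for Crhbp (adjusted p = 0.185), with 2 DRF mice left, and 29 of all transcripts were called in place of 3202. Without replicate 3 or 4 of every group, Crhr1 was at 0.20 and 0.25 (adjusted p = 0.369 and 0.4 by limma). Without replicate 2, 3 or 4, Crhbp was at 0.23, 0.35 and 0.54 (adjusted p = 0.255, 0.226 and 0.0893 by limma). Crh, the ligand of this receptor, had 7.84, 6.27, 5.60 and 8.81 CPM in DRF and 8.66, 12.7, 10.2 and 9.74 CPM in NRF at ZT16, with 1 DRF mouse inside the NRF range. Its difference of -0.48 did not pass the threshold (interval -0.87 to -0.09, adjusted p = 0.0681 by limma), and it was -0.49 without both mice (adjusted p = 0.42). Over the 6 members the median difference at ZT16 was 0.18, and over all transcripts tested it was 0.00. Without both mice the median of the members was 0.05. The summed paraventricular and supraoptic markers were 278 to 372 CPM in DRF and 259 to 317 CPM in NRF at this time. The summed thalamic markers were 130 to 179 CPM in DRF and 230 to 430 CPM in NRF, with no overlap. The summed arcuate markers were 80.7 to 107 CPM in DRF and 56.3 to 94.5 CPM in NRF, and the summed suprachiasmatic markers were 53.0 to 87.0 CPM in DRF and 78.2 to 89.6 CPM in NRF. Those of striatum and septum were 157 to 241 CPM in DRF and 143 to 343 CPM in NRF, and those of cortex and hippocampus were 98.1 to 144 CPM in DRF and 133 to 141 CPM in NRF. Their part in the ZT16 differences was not tested.

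**Figure D3:**
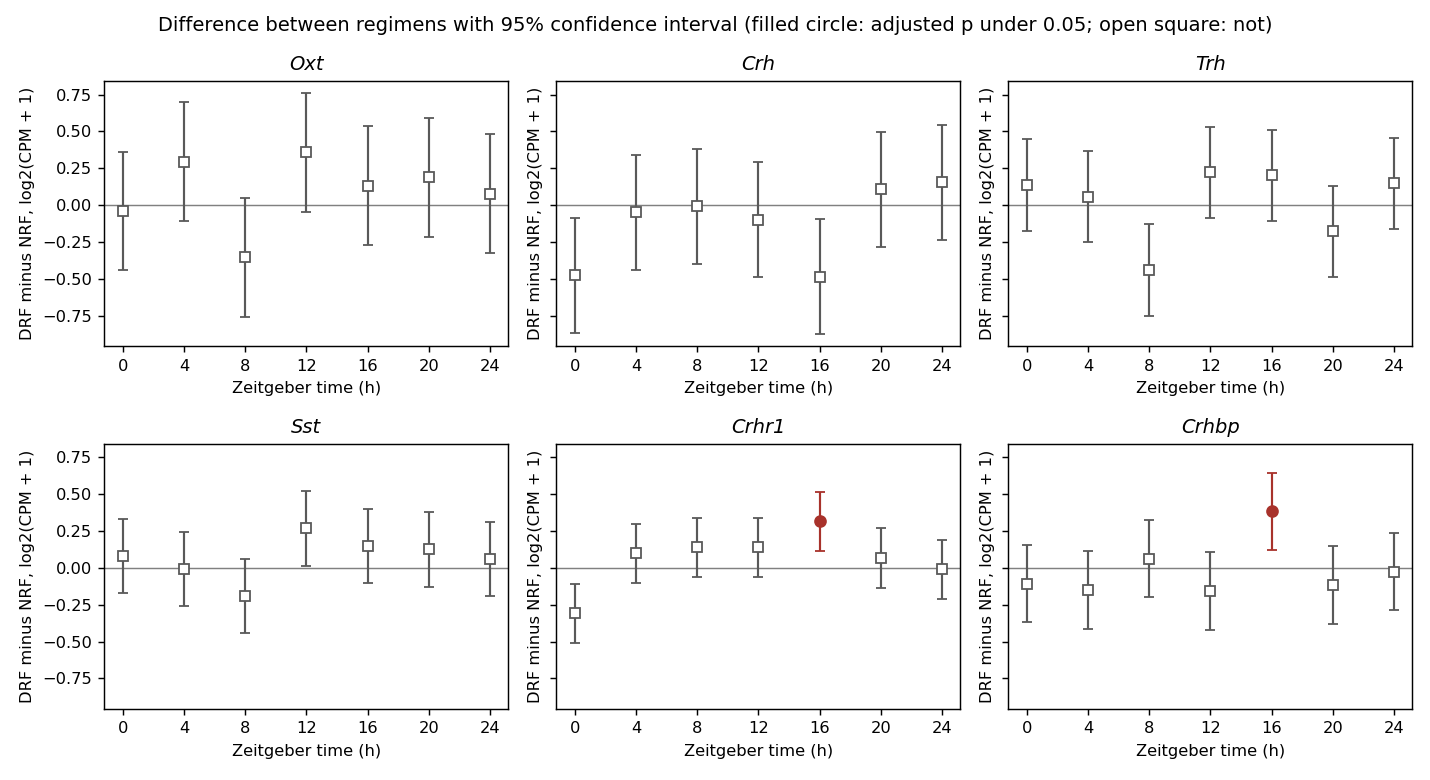
Difference in log2(CPM + 1) between DRF and NRF at each zeitgeber time, with the 95% confidence interval from limma. Filled circles mark an adjusted p under 0.05, which only Crhr1 and Crhbp at ZT16 reached. The intervals of Oxt, with an SE of 0.20, are the widest.

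At the other 6 time points 0 of 6 members were called. The share of all transcripts called by limma was 4.73% at ZT0, 3.95% at ZT4, 0.15% at ZT8, 1.63% at ZT12, 1.23% at ZT20 and 0.293% at ZT24. At an unadjusted p under 0.05 there were 2 members at ZT0, 1 at ZT8, 1 at ZT12 and 0 at the other 3. The shares of all transcripts at that level were 17.8% at ZT0, 17.9% at ZT4, 13.5% at ZT8, 16.7% at ZT12, 13.8% at ZT20 and 8.44% at ZT24. The pair at ZT0 was Crh, with 6.08, 10.7, 6.44 and 6.71 CPM in DRF and 10.8, 10.2, 12.0 and 9.32 CPM in NRF, and Crhr1, with 9.15, 9.79, 12.4 and 10.1 CPM in NRF against the DRF values above. In both genes 3 of the 4 DRF mice lay below all NRF mice. The differences were -0.47 for Crh (interval -0.86 to -0.08, adjusted p = 0.163 by limma) and -0.31 for Crhr1 (interval -0.51 to -0.11, adjusted p = 0.0606 by limma). The latter was past the threshold without DRF ZT16 mice 3 and 4, at an adjusted p of 0.0399 by limma, and without replicate 2, at -0.40 and an adjusted p of 0.0372. Leaving out DRF ZT16 mice 3 and 4 removed no ZT0 mouse, and the estimate stayed at -0.31. At ZT0, 1185 of all transcripts were then called in place of 760. Trh at ZT8 was 124, 145, 156 and 133 CPM in DRF against the NRF values above, a difference of -0.44 (interval -0.75 to -0.13, adjusted p = 0.216 by limma), which became -0.58 without replicate 2 (adjusted p = 0.0175). Sst at ZT12 was 204, 163, 161 and 198 CPM in DRF and 148, 176, 130 and 148 in NRF, a difference of 0.27 (interval 0.02 to 0.52, adjusted p = 0.268 by limma).

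Averaged over the 7 time points, 0 of 6 members differed between DRF and NRF, with 10.5% of all transcripts called by limma. There were 0 members at an unadjusted p under 0.05, against 26.1% of all transcripts. The intervals bound the average difference on the log2 scale to between -0.06 and 0.25 for Oxt, -0.27 and 0.03 for Crh, -0.10 and 0.14 for Trh, -0.03 and 0.16 for Sst, -0.01 and 0.14 for Crhr1 and -0.12 and 0.08 for Crhbp. Oxt without replicate 2, at 0.24, and Crh without replicate 4, at -0.25, were past the threshold (adjusted p = 0.0202 and 0.0429 by limma). ZT24 and ZT0 are the same clock hour in different mice. limma called 0 of 6 members between them in DRF, where 0.567% of all transcripts were called, and 0 of 6 in NRF, where 2.11% were. At an unadjusted p under 0.05 there were 3 members in DRF and 2 in NRF, with 15.1% and 19.1% of all transcripts. For Sst, ZT24 minus ZT0 was -0.30 in DRF and -0.28 in NRF, with an adjusted p of 0.238 and 0.207 by limma. Crh was at 0.40 in DRF and Oxt at -0.43 in NRF (adjusted p = 0.315 and 0.224 by limma). Crhr1 was higher at ZT24 in DRF by 0.28 (interval 0.08 to 0.48, adjusted p = 0.171 by limma), so its low level at ZT0 was not repeated. Its difference between regimens was -0.31 at ZT0 and -0.01 at ZT24.

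Food access was separated from time of day by combining both regimens at ZT4, ZT8, ZT16 and ZT20. All mice had light at ZT4 and ZT8 and dark at ZT16 and ZT20. Light and clock hour therefore cannot be told apart, and light against dark is a comparison of times of day. Between mice with and without food access, 0 of 6 members differed, with 10.3% of all transcripts called by limma. No member had an unadjusted p under 0.05, against 29.2% of all transcripts. The largest estimate was that of Sst, at -0.12 with food (interval -0.24 to 0.01, adjusted p = 0.198 by limma). Between light and dark 1 of 6 was called, with 18.1% of all transcripts called. This was Crhr1, lower in the light at -0.14 on the log2 scale (interval -0.24 to -0.04, adjusted p = 0.0439 by limma). Without DRF ZT16 mice 3 and 4 its value was -0.11 and not past the threshold (adjusted p = 0.111 by limma), nor was it past without replicate 2, 3 or 4 (adjusted p = 0.136, 0.186 and 0.162 by limma). Trh and Sst went the other way, at 0.20 (interval 0.05 to 0.36, adjusted p = 0.0591 by limma) and 0.13 (interval 0.01 to 0.26, adjusted p = 0.133 by limma) in the light. Without those mice both were past the threshold, at 0.23 for Trh (adjusted p = 0.0327 by limma) and 0.18 for Sst (adjusted p = 0.0351 by limma). In that setting 30.5% of all transcripts were called, against 18.1% with all mice.

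Some of these transcripts varied together among mice of 1 group. For each pair of members, the deviations of log2(CPM + 1) from the 14 group means were correlated over the 56 mice (permutation test within groups with 100000 draws, 15 pairs, Benjamini-Hochberg adjustment), and 5 of 15 pairs passed. Oxt and Trh were the closest, with Pearson's r = 0.80 (permutation p = 1e-05, the smallest these draws can give, adjusted p = 7.5e-05) and Spearman's rho = 0.74 (permutation, adjusted p = 7.5e-05). Without the 2 mice farthest out in Oxt, r was 0.73. In DRF at ZT20, for example, mouse 2 had 165 CPM of Oxt and 78.0 of Trh, while the other 3 mice had 289 to 339 and 144 to 162. Crh and Crhbp went in opposite directions, with r = -0.57 (permutation p = 1e-05, adjusted p = 7.5e-05), rho = -0.64 (permutation, adjusted p = 7.5e-05) and r = -0.63 without the 2 mice farthest out in Crh.

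**Figure D4:**
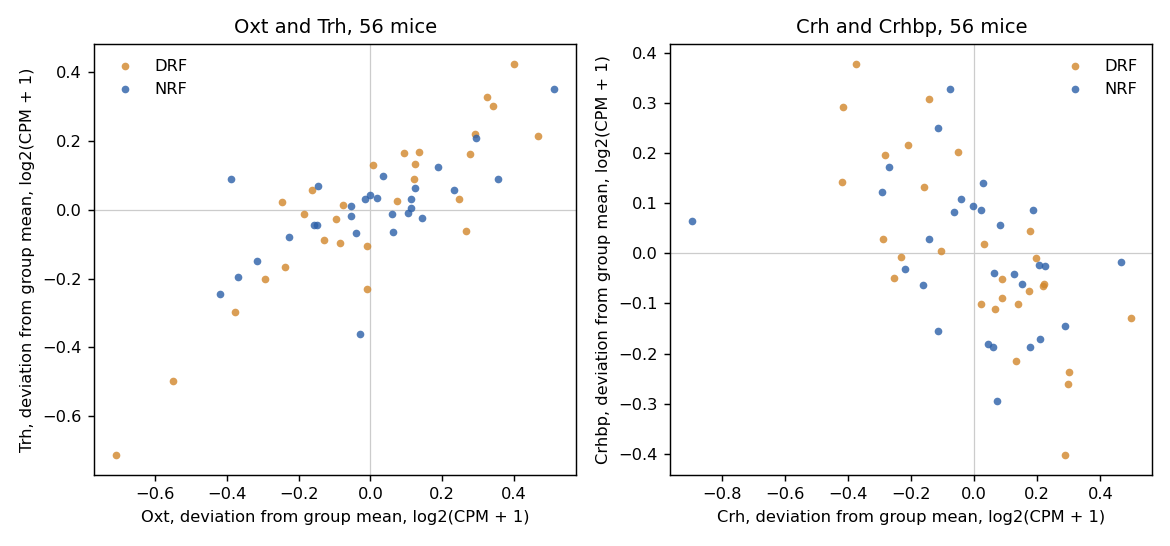
Deviation of each of the 56 mice from its group mean in log2(CPM + 1), for Oxt against Trh (left) and Crh against Crhbp (right), colored by regimen. Oxt and Trh rise together (r = 0.80) and Crh and Crhbp run opposite (r = -0.57) over the 56 mice.

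The other 3 pairs were weaker. Trh and Sst had r = 0.49 (permutation p = 0.00455, adjusted p = 0.0227) and rho = 0.55 (permutation, adjusted p = 0.0032), and r = 0.51 without the 2 mice farthest out in Trh. Oxt and Sst had r = 0.45 (permutation p = 0.00685, adjusted p = 0.0257) and rho = 0.43 (permutation, adjusted p = 0.0281), and r = 0.44 without the 2 mice farthest out in Oxt. Trh and Crhr1 had r = -0.40 (permutation p = 0.00862, adjusted p = 0.0259), rho = -0.34 (permutation, adjusted p = 0.0494) and r = -0.33 without the 2 mice farthest out in Trh. The pairs Oxt with Trh and Crh with Crhbp also passed without each replicate number in turn. The other 3 did not pass in every such setting. Without DRF ZT16 mice 3 and 4, Oxt with Sst did not pass (r = 0.40, permutation, adjusted p = 0.0524, rho = 0.38, permutation, adjusted p = 0.053), and the other 4 did. Crh and its receptor gene Crhr1 had r = 0.38, which did not pass (permutation p = 0.03, adjusted p = 0.0749), and rho = 0.38 (permutation, adjusted p = 0.0384). Without those mice this pair passed, with r = 0.44 (permutation, adjusted p = 0.0443) and rho = 0.40 (permutation, adjusted p = 0.03).

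The same deviations were set against those of log2(summed CPM + 1) of 8 groups of region markers, and 23 of 48 pairs passed (permutation test within groups, adjusted over the 48). For the pairs named here, the unadjusted permutation p of r was 1e-05 to 0.0113, and the adjusted permutation p of rho was 1.6e-04 to 0.0494. Oxt and Trh followed the paraventricular and supraoptic markers, with r = 0.79 (permutation, adjusted p = 9.6e-05) and 0.77 (permutation, adjusted p = 9.6e-05). Their rho was 0.75 and 0.64, and r was 0.72 and 0.67 without the 2 mice farthest out. This marker list holds Avp, the gene that shares bases with Oxt. Avp weighs most in the sum, with a median of 169 CPM. The medians were 60.2 CPM for Otp, 45.6 for Pou3f2, 18.8 for Sim1 and 11.5 for Nhlh2. These r therefore do not show how Oxt and Trh relate to the markers other than Avp. Sst followed the arcuate markers (r = 0.75, rho = 0.77, permutation, adjusted p = 9.6e-05) and ran opposite to the thalamic ones (r = -0.56, rho = -0.63, permutation, adjusted p = 6.86e-04). Crh ran opposite to the arcuate markers (r = -0.64, rho = -0.56, permutation, adjusted p = 9.6e-05) and was higher where striatal and septal markers were higher (r = 0.48, rho = 0.47, permutation, adjusted p = 0.0118). Crhr1 ran opposite to the suprachiasmatic markers (r = -0.64, rho = -0.61, permutation, adjusted p = 5.6e-04) and rose with the striatal and septal ones (r = 0.50, rho = 0.45, permutation, adjusted p = 0.00523). Crhbp rose with the arcuate markers (r = 0.37, rho = 0.37, permutation, adjusted p = 0.0146) and ran opposite to those of cortex and hippocampus (r = -0.45, rho = -0.36, permutation, adjusted p = 0.034). Without the 2 mice farthest out in the member, these r were 0.71 and -0.57 for Sst, -0.60 and 0.52 for Crh, -0.56 and 0.39 for Crhr1 and 0.38 and -0.35 for Crhbp. The pituitary list, which shares Pomc with the arcuate list, had r = -0.69 with Crh and 0.59 with Sst (permutation, adjusted p = 9.6e-05 and 0.00264). Fewer of the 48 pairs passed without 1 replicate number, from 4 without replicate 1 to 17 without replicate 4. Of the pairs named here, Oxt and Trh with the paraventricular and supraoptic markers and Sst with the arcuate markers passed without each replicate number in turn. The other 9 were all lost without replicate 1, where their adjusted permutation p was 0.0539 to 0.106. How much of the variation in these members came from the tissue taken was not tested.

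**Figure D5:**
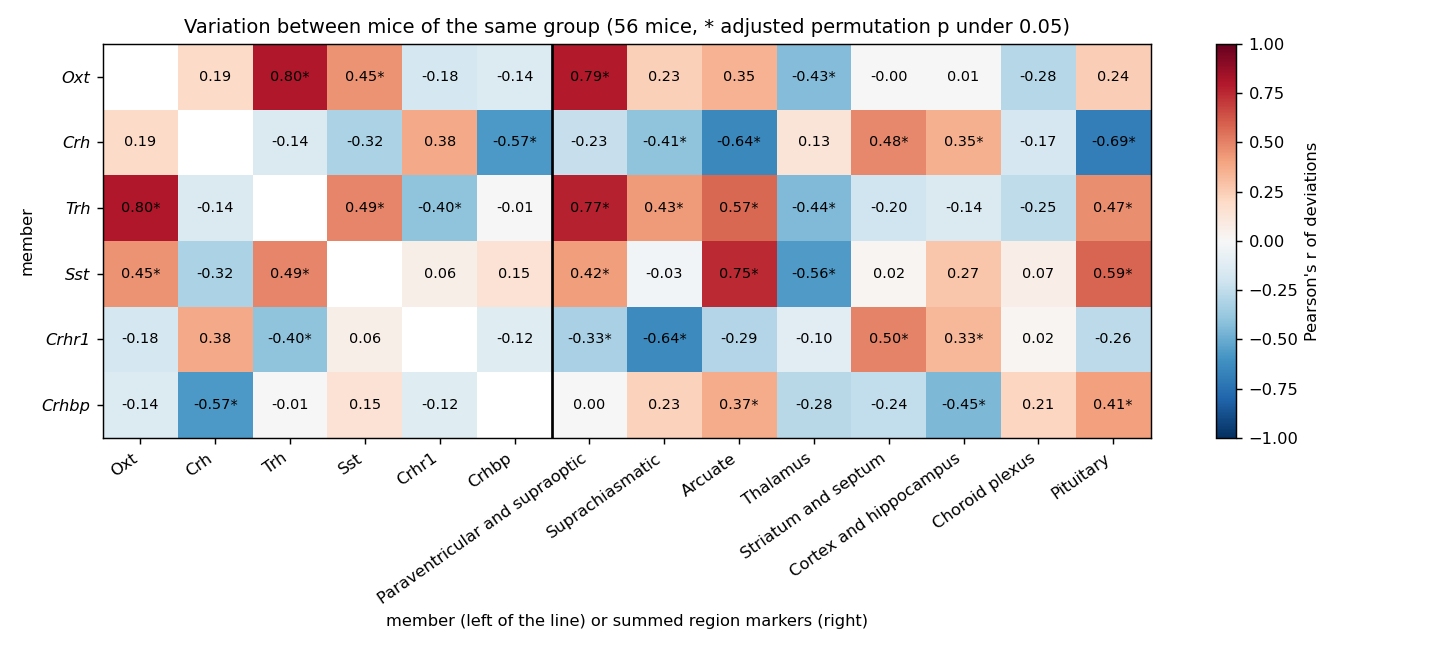
Pearson's r of the deviations from group means over the 56 mice, for each member (rows) against the other members and against the summed markers of 8 regions (columns). Asterisks mark an adjusted permutation p under 0.05. Among the region markers, Oxt and Trh are highest with the paraventricular and supraoptic markers (0.79 and 0.77), Sst with the arcuate markers (0.75). Avp weighs most in the paraventricular and supraoptic sum.

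The transcripts most like each member were taken from 13803 transcripts, by Pearson's r of these deviations over the 56 mice, as a description. For Oxt they were Foxp4 (0.81), Avp (0.80) and Trh (0.80). Trh was closest to Mrap2 (0.87), which encodes an accessory protein of melanocortin receptors, then to Ssbp3 (0.87) and Sparc (0.86). Sst was closest to Crip2 (0.82), to Npy (0.81), the appetite peptide of arcuate neurons, and to Isyna1 (0.81). Among the transcripts closest to Crh was Trp73 (0.79). Crhr1 had Stac2 (0.71), Gpt (0.66) and Apln (0.66), and Crhbp had Pdzph1 (0.74), Dkk3 (0.69) and Ebf3 (0.68). By the levels themselves, group means included, the closest were Avp for Oxt (0.82), Tbr1 for Crh (0.79), Mrap2 for Trh (0.89), Ly6h for Sst (0.82), Fam160b2 for Crhr1 (0.77) and Ebf3 for Crhbp (0.68).

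Other genes of these peptide pathways were read from 6 lists. Among related ligands, 4 of 5 were tested, and 0 were called between regimens on average or at ZT16. Avp, at 172 ± 53.1 CPM (SD, n = 56), was not called in any of the 17 comparisons. Ucn2, at 0.106 CPM, was called over time in NRF and in the light against the dark, at a level of few reads. Of 11 receptor genes 10 were tested, and 2 differed between regimens on average, where 10.5% of all transcripts did. Crhr2, the second CRH receptor, was higher in DRF by 0.15 (adjusted p = 0.0373 by limma), and Sstr4, a somatostatin receptor at 1.66 CPM, was higher by 0.17 (adjusted p = 0.0128 by limma). At ZT16 3 of 10 were called, with 19.9% of all transcripts: Crhr2 was higher in DRF by 0.42, Sstr3 was higher by 0.25 and Trhr, the TRH receptor, was lower at -0.40, with adjusted p of 0.0162, 0.0424 and 0.0462 by limma. Without DRF ZT16 mice 3 and 4, 0 of 10 receptors were called at ZT16, Trhr was at 0.17 in the other direction, and the average difference of Crhr2 had an adjusted p of 0.061 by limma. With food access Crhr2 was lower at -0.20 (adjusted p = 0.0329 by limma), and without these mice the adjusted p was 0.105.

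Of the 12 genes for prohormone processing and granule proteins, all tested, 1 differed between regimens on average and 2 at ZT16. Of all transcripts, 10.5% and 19.9% were called in these comparisons. Cpe, the carboxypeptidase that trims the basic residues left after prohormone cleavage, was lower in DRF at -0.08 on average (adjusted p = 0.01 by limma). At ZT16 Chgb was higher by 0.20 and Scg3 lower at -0.12 (adjusted p = 0.0156 and 0.0465 by limma), and 0 of 12 were called there without mice 3 and 4. Among the 5 peptide-degrading enzymes, Trhde, which cleaves TRH outside the cell, was lower in DRF at ZT16, at -0.33 (adjusted p = 0.0261 by limma), and at 0.04 in the other direction without these mice (adjusted p = 0.927 by limma). Of 9 other peptides of the same nuclei, 2 were lower in DRF on average, where 10.5% of all transcripts were called. These were neurotensin (Nts) at -0.24 and cholecystokinin (Cck) at -0.47 (adjusted p = 8.91e-04 and 0.0412 by limma). Both were called without DRF ZT16 mice 3 and 4 as well, at -0.21 and -0.53. The highest group means of Cck were 37.4 CPM at ZT12 and 36.6 CPM at ZT16 in NRF. These groups also had the highest means of the summed thalamic markers, at 350 and 324 CPM. The part of the tissue taken in the Cck difference was not tested. In the light 3 of these 9 peptides were called, where 18.1% of all transcripts were. Gal was higher by 0.27, Pdyn by 0.24 and Nts by 0.16 (adjusted p = 0.00948, 0.0285 and 0.0496 by limma). Gal and Pdyn were also called without DRF ZT16 mice 3 and 4. Of 9 transcription factors of these neurons, 1 differed on average, where 10.5% of all transcripts did. Arnt2, a partner of SIM1 in the formation of these neurons, was higher in DRF by 0.09 (adjusted p = 5.29e-04 by limma). At ZT16 4 of 9 were called, where 19.9% of all transcripts were. Pou3f2 was lower at -0.54 and the glucocorticoid receptor gene Nr3c1 at -0.40, while Arnt2 was higher by 0.13 (adjusted p = 0.00545, 0.0104 and 0.023 by limma), and 0 of 9 were called there without mice 3 and 4. In NRF 4 of these 9 were called rhythmic (Creb1, Crem, Pou3f2 and Thrb), along with the TRH receptor Trhr and the peptide gene Cartpt in the other lists, while 27.8% of all transcripts were called. The median difference of the lists at ZT16 was -0.02 for related ligands, 0.21 for receptors, 0.01 for processing, -0.07 for degrading enzymes, 0.11 for other peptides and -0.16 for transcription factors. These medians without DRF ZT16 mice 3 and 4 were -0.14, 0.16, 0.04, -0.05, 0.05 and 0.07.

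The remaining calls of these lists were few. Nts was lower in DRF at ZT0, at -0.40 (adjusted p = 0.0333 by limma), and also at ZT16, at -0.33 (adjusted p = 0.0406 by limma), where it was -0.12 without DRF ZT16 mice 3 and 4 (adjusted p = 0.784). Arnt2 was higher in DRF at ZT0 by 0.14 and Cpe lower at ZT12, at -0.25 (adjusted p = 0.0381 and 0.0144 by limma). With food access, 3 of the 9 transcription factors were higher, where 10.3% of all transcripts were called: Creb1 by 0.26, Pou3f2 by 0.24 and Nr3c1 by 0.16 (adjusted p = 0.0106, 0.0146 and 0.0482 by limma). None of these 3 passed without DRF ZT16 mice 3 and 4 (adjusted p = 0.0621, 0.115 and 0.36 by limma). In the light, where 18.1% of all transcripts were called, 2 of 12 processing genes were higher. Scg3 was higher by 0.07 and Qpct by 0.15 (adjusted p = 0.0136 and 0.016 by limma), and neither passed without these mice (adjusted p = 0.0531 and 0.0684 by limma). Creb1 and Pou3f2, 2 of the 9 transcription factors, differed in rhythm between regimens (adjusted p = 0.0234 and 0.0399 by limma), where 11.3% of all transcripts did. Over time in DRF, where 32.7% of all transcripts were called, the calls were Scg3, Scg5 and Chga of 12 processing genes, Trhde and Lnpep of 5 degrading enzymes, Vgf and Gal of 9 other peptides and Pou3f2 and Nr3c1 of 9 transcription factors. Of these only Scg5 was called without DRF ZT16 mice 3 and 4 (adjusted p = 0.0297 by limma). Over time in NRF, where 29.9% were called, they were Ucn2, Crhr2, Cpe, Chga, Vgf, Gal, Pdyn, Crem and Creb1. Leaving out DRF ZT16 mice 3 and 4 also added calls. Over time in DRF, where 15.4% of all transcripts were then called, they were Creb1 and Crem. Over time in NRF, where 40.9% were then called, they were Mme, Trhde and Pou3f2. For light, where 30.5% of all transcripts were then called, they were Avpr1a, Chga, Mme, Arnt2, Creb1, Crem and Thrb. Mme was added for the difference in rhythm, Crem at ZT0, Creb1 at ZT4 and Pdyn at ZT12. The shares of all transcripts then called were 10.8%, 7.38%, 6.50% and 4.19%.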

How the data were processed

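RNA was sequenced from 56 mice. The authors mapped reads to GRCm38.p6 with HISAT2, aligned them to coding genes with Bowtie2, counted them with RSEM and scaled libraries by a trimmed mean of M-values. The deposited values, which the authors name TPM, are a score: log2(CPM + 1) was divided by exon length, and each mouse was brought to a common total. Reversing this gave whole reads, within 0.05, for 14136 genes at the annotated exon length and for 1148 at another length, and for all 6 members.

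Rhythm was tested on the deposited score of 16245 transcripts that reached 1 in 80% of mice or more, with own code for JTK_CYCLE and the Lomb-Scargle periodogram. Other tests used limma 3.58.1 in R 4.3.3 (trended prior, 14 group means, 1 shared spread) on log2(CPM + 1) of 16051 transcripts, with Benjamini-Hochberg adjustment and a threshold of 0.05. Correlations were tested by permutation within groups in Python 3.11.15. Scripts were tested on simulated data. No 2 libraries of a group agreed within sampling noise, and the labels name no batch. Alternatives were the deposited scale, a prior of 0.1 CPM, no filter, centring each mouse on its median, JTK_CYCLE or a cosine alone, no ZT24, a replicate block and each replicate number left out. Leaving out DRF ZT16 mice 3 and 4, and the relation to region markers, were added after seeing the data. The members and lists were chosen with earlier results of these data known. Pathway genes are named where past the threshold, at most 3 per list and comparison by smallest p, and alike transcripts as the 3 with the highest r. Some of the latter are not reported here.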

Additional observations from a re-analysis of the deposited data

Results flagged for a closer look

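The 4 mice of each group were compared with each other for each of the 6 members, 84 groups in all, and in 5 of them the highest or lowest mouse stood apart from the rest, by Dixon's ratio of the gap to the whole range in log2(CPM + 1). Chance alone flags about 1 group in 20. Trh was 78.0 CPM in DRF ZT20 mouse 2 and 144 to 162 in the other 3 (ratio 0.844). Sst was 153 CPM in NRF ZT4 mouse 4 and 194 to 197 in the others (ratio 0.949). Crh was 7.18 CPM in NRF ZT24 mouse 4 and 9.28 to 9.77 in the others (ratio 0.832). Crhbp was 7.43 CPM in DRF ZT4 mouse 3 and 5.89 to 6.08 in the others (ratio 0.864), and 6.91 CPM in NRF ZT8 mouse 4 and 6.44 to 6.48 in the others (ratio 0.907).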

How the results depend on the processing

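Over all alternatives, 990 values of single members kept their side of the threshold, 12 passed it and 18 fell short of it, and 0 called values changed sign. Values that were not called could change sign, as Oxt at ZT16 did, from 0.13 to -0.05 without DRF ZT16 mice 3 and 4. Of the 6 members, 2 were called over time in NRF, against 1 with log2(deposited value + 1) and 0 to 2 without 1 replicate number. With each replicate number left out in turn, members called were 0 to 1 for the mean over time, at ZT0, at ZT8, for food access and for light, 0 to 2 at ZT12 and 0 to 3 at ZT16. The shares of all transcripts were 2.72 to 14.3%, 0.966 to 3.59%, 0 to 0.386%, 1.22 to 14.3%, 8.05 to 13.9%, 0.0187 to 5.35% and 0.168 to 31.0%, in that order. Without DRF ZT16 mice 3 and 4 there was 1 member at ZT0, 0 at ZT16 and 2 for light, where 7.38%, 0.181% and 30.5% of all transcripts were called. At ZT16 Crh was called without replicate 1 (-0.60, adjusted p = 0.041 by limma), and at ZT12 Oxt (0.65, adjusted p = 0.0324) and Trh (0.44, adjusted p = 0.0212) were called without replicate 2. Without replicate 2, Oxt was also called over time in NRF (adjusted p = 0.0252) and Trh for food access (-0.21, adjusted p = 0.013). Of 15 pairs of members 5 passed, and 2 to 4 without 1 replicate number. Of 48 pairs with markers 23 passed, and 4 to 17 without 1 number. Causes were not tested, but leaving mice out also lowers the number of samples.

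The numbers 1 to 4 are shared by both regimens. With them as a replicate block, members called were as without it, 1 over time in DRF, 2 over time in NRF, 2 at ZT16, 1 for light and 0 elsewhere. The numbers did not pair the mice: r between deviations of same-numbered mice was -0.53 to 0.23 over 28 pairs, with 6 over 0.1, and 3 DRF mice correlated best with their own number.

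Counts over all transcripts moved by more than 1.5 times in every comparison. Rhythmic were 132 in DRF (26 to 196 over the alternatives) and 4508 in NRF (2192 to 6290), and 1814 differed in rhythm (448 to 1779). Over time, 5247 changed in DRF (837 to 5883) and 4799 in NRF (1924 to 6570). Between regimens, 1690 differed on average (436 to 2294), 760 at ZT0 (155 to 1185), 634 at ZT4 (62 to 1044), 24 at ZT8 (0 to 151), 261 at ZT12 (3 to 858), 3202 at ZT16 (27 to 4972), 198 at ZT20 (12 to 392) and 47 at ZT24 (8 to 104). ZT24 minus ZT0 gave 91 in DRF (0 to 186) and 339 in NRF (0 to 1054), food access 1653 (196 to 2300) and light 2910 (1292 to 4902). With 4 mice per group, Crh, Crhr1 and Crhbp rest on 132 to 514 reads per mouse.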
